A study of Drosophila melanogaster with 6 samples.

Results

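The genes that make and move sugar were followed in starved flies, in single nuclei of *Drosophila melanogaster*. The set was chosen by name and holds 10 genes of gluconeogenesis, glycogen and trehalose. A row was analysed for 9 of them, among the 12925 genes of the deposited matrix, namely *Pepck2*, *fbp*, *G6P*, *Tps1*, *Treh*, *Tret1-1*, *GlyS*, *GlyP* and *AGBE*. *Pepck1* was not analysed here. All samples were bodies without heads of adult female flies of the genotype PromE-gal4, Tub-gal80ts. In it a temperature-sensitive Gal80, expressed everywhere, holds back the oenocyte driver PromE-gal4 at 18 °C. By the paper's methods, the move to 29 °C activates the driver. The flies grew at 18 °C, were collected within 48 hours of emerging, stayed a further 48 hours at 18 °C and were then moved to 29 °C, for 7 days by one label and 5 by another. They were fed, or starved to day 2 or to day 5 on an agar medium with ions. By the paper, the only calories of that medium came from acetic acid. Each condition had 2 libraries, and no source used here says whether these held nuclei of separate flies, so the spread between libraries may be technical.

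Gluconeogenesis runs glycolysis backwards and makes sugar from amino acids, glycerol and lactate. Phosphoenolpyruvate carboxykinase, encoded by *Pepck1* and *Pepck2*, turns oxaloacetate into phosphoenolpyruvate. Fructose-1,6-bisphosphatase, the product of *fbp*, takes a phosphate from fructose bisphosphate, and glucose-6-phosphatase, the product of *G6P*, frees glucose. In insects the sugar of the blood is mainly trehalose, a pair of linked glucose units. The fat body makes it with trehalose-6-phosphate synthase, the product of *Tps1*. The transporter Tret1-1 carries it across membranes, and trehalase, the product of *Treh*, splits it into glucose. Glycogen is the stored sugar of fat body and muscle: glycogen synthase (*GlyS*) lengthens its chains, the branching enzyme (*AGBE*) adds branches and glycogen phosphorylase (*GlyP*) takes glucose units off.

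Each of the 6 libraries contributed 3776 to 10091 nuclei, with totals of 7562483 to 22932938 UMIs, the unique molecular identifiers that count captured RNA molecules. The deposited values are natural logs with a multiplier for each gene, and UMIs were worked back from them. Levels are given as UMIs of a gene per 10000 UMIs of a library and cluster, a scale that compares clusters and libraries for 1 gene. Of the 42848 barcode sequences, 179 (0.418%) occurred in more than 1 library. Doublets were not called here. The 26 clusters and their names are the authors'. All 6 fat body markers, all 6 oenocyte markers and all 4 hemocyte markers were highest in the cluster of that name. The markers of enterocytes, 5 of 5, were highest in cluster 12, which the annotation names "Malphian tubule and pericardial cells", so it is called cluster 12 here. The clusters named germline 6, follicle 4 and glia were less clear, with 1 of 4, 1 of 5 and 2 of 4 markers highest there. None of the 3 tracheal markers was highest in cluster 10, named trachea, and only *Mhc* among the 5 markers of other muscle was highest in cluster 1, named muscle. In indirect flight muscle, *fln* and *TpnC4* among 5 markers were highest. RNA of genes that mark other cells was found in most clusters, and its level differed between conditions. Its source was not tested. The eggshell gene *Cp15* in flight muscle stood at 23.7 and 20.8 UMIs per 10000 in the fed libraries, and lay between 0.0630 and 0.215 in the starved libraries.

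On BDGP6, *Pepck2* (FBgn0034356) lies on chromosome arm 2R from 18527430 to 18535749, on the plus strand. *fbp* (FBgn0032820) lies on 2L from 19761587 to 19764136 and *G6P* (FBgn0031463) on 2L from 2814336 to 2815760, both on the minus strand. *Tps1* (FBgn0027560) lies on 2L from 4388327 to 4392778, *Treh* (FBgn0003748) on 2R from 21074018 to 21088945 and *Tret1-1* (FBgn0050035) on 2R from 11665768 to 11674782, all on the plus strand. *GlyS* (FBgn0266064) lies on 3R from 15141843 to 15147531 on the minus strand, and *GlyP* (FBgn0004507) on 2L from 2130813 to 2137296 and *AGBE* (FBgn0053138) on 2R from 13171401 to 13174796 on the plus strand. *Tps1* overlaps *CG3652*, *Treh* overlaps *Rbpn-5*, *Tret1-1* overlaps *Roc2* and *G6P* overlaps *CG2964*, each on the opposite strand. These neighbours held 3213, 1766, 9710 and 27 UMIs in all nuclei, against 31090 for *Tps1*, 28951 for *Treh*, 53465 for *Tret1-1* and 88 for *G6P*. The use of strand in counting is not given in the sources used here, so reads of each overlapping pair may have been shared.

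The members differed in where their RNA was found. *Tps1* was a fat body gene: fat body held 81.6% of its UMIs and 15.2% of all UMIs. Its mean level there over the 6 libraries was 18.7 ± 2.35 UMIs per 10000 (SD, n = 6), and the next cluster of those with at least 20 nuclei in every library, the one named ovary cell, stood at 1.65 ± 2.08 (SD, n = 6). Their ranges did not overlap. The ovary cell libraries had a median of 0.823 and a highest value of 5.88, and their fed mean was 0.941, below the 1.11 of cluster 1 muscle. *fbp* followed *Tps1*, with 69% of its UMIs in fat body. Its level there was 3.21 ± 0.237 (SD, n = 6) against 0.489 ± 0.216 (SD, n = 6) in cluster 12, again without overlap. *fbp* in fat body was at its lowest at 2.87.

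*Pepck2* was shared between fat body and flight muscle, which held 49% and 26.4% of its UMIs. In the fed libraries the level was 1.25 ± 0.0892 (SD, n = 2) in fat body and 1.07 ± 0.144 (SD, n = 2) in flight muscle, and the ranges over all 6 libraries overlapped. The multidendritic neuron cluster, too small for a test, held 0.683% of the fed *Pepck2* UMIs and 0.153% of all fed UMIs. For fat body these shares were 43.7% and 13.9%. *G6P* was almost absent. Of its 88 UMIs in all nuclei, 44 lay in neurons and 10 in fat body, so no cluster could be tested for it. A few captured UMIs do not show that the gene is silent in the other clusters.

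Trehalase and the trehalose transporter were broad. *Treh* was highest in oviduct nuclei, which were too few for a test, at 59.2 and 47.9 UMIs per 10000 in the fed libraries, 58.2 and 63.6 at day 2 and 31.4 and 30.9 at day 5. The day 5 libraries lay below all others there. Among the tested clusters its mean level in the fed libraries was 7.04 in the cluster named trachea, 5.89 in pylorus, 5.60 in flight muscle and 5.33 in the epidermal cluster. Over all 6 libraries the order was pylorus, glia, the cluster named trachea and cluster 12, with ranges that overlapped from each to the next. The order thus differed from that of the fed libraries. In pylorus the single libraries lay between 1.71 and 11. *Tret1-1* was highest in pylorus, at a mean of 17.3 in the fed libraries. Among the tested clusters, oenocytes (9.24), cluster 1 muscle (8.72) and flight muscle (8.55) followed. The crop muscle cluster, too small for a test, held 1.05% of the fed *Tret1-1* UMIs and 0.561% of all fed UMIs. For oenocytes these shares were 3.90% and 2.22%. Over all 6 libraries, with the starved levels averaged in, pylorus (16.6 ± 3.23, SD, n = 6) was followed among the tested clusters by flight muscle (13.1 ± 3.86, SD, n = 6) and cluster 1 muscle (11.5 ± 2.28, SD, n = 6), with overlapping ranges. *Tret1-1* was detected in 39.1% of all nuclei.

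The glycogen enzymes did not share a site. Over all 6 libraries *GlyS* was highest, among the tested clusters, in flight muscle (2.60 ± 0.983, SD, n = 6), which held 31.3% of its UMIs. Its range there overlapped that of the epidermal cluster (2.10 ± 0.464, SD, n = 6). At day 5 the *GlyS* level in flight muscle was 99.5% and 95.4% of that in fat body. *GlyP* was highest in the small muscle cluster 13 (2.85 ± 0.549, SD, n = 6), above the ovary cell cluster without overlap. *AGBE* was about level in the fed libraries between the ovary cell cluster (mean 0.806) and fat body (mean 0.783), and only over all 6 libraries was it highest in fat body (1.35 ± 0.505, SD, n = 6), with overlapping ranges.

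**Figure D1:**
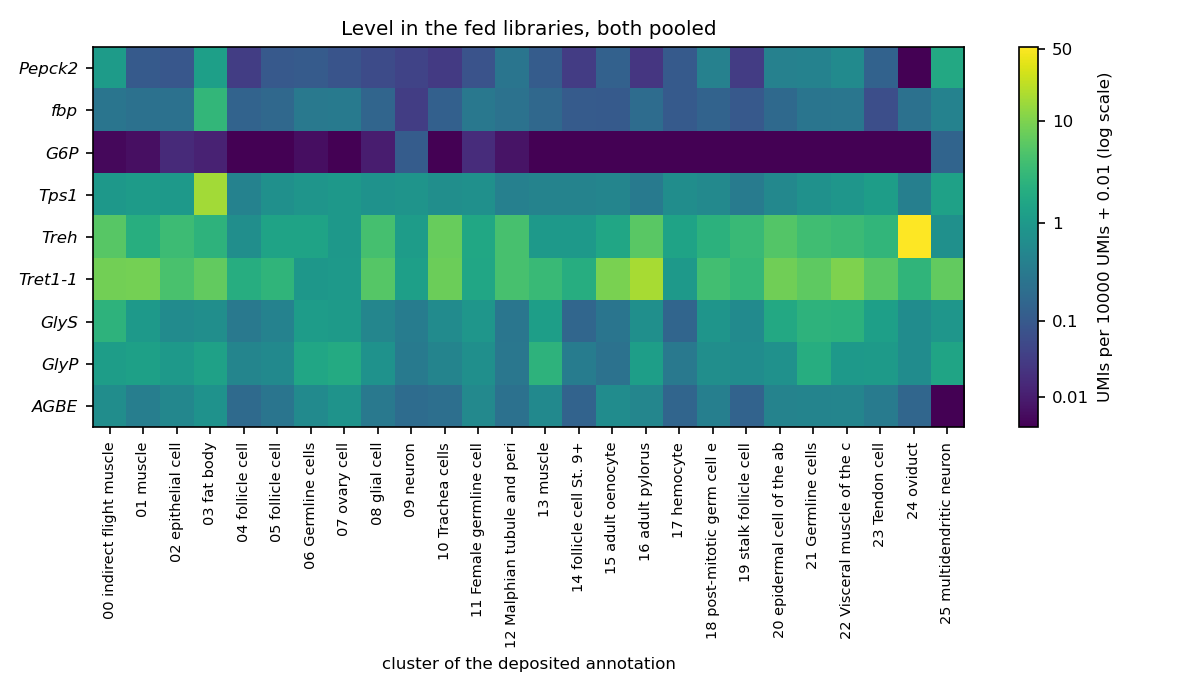
The level of each of the 9 genes (rows) in the 26 clusters (columns) is shown as UMIs per 10000 UMIs plus 0.01, on a log colour scale, with both fed libraries pooled. *Tps1* and *fbp* stand out in fat body, *Treh* in oviduct and *Tret1-1* in pylorus, while *G6P* is near 0 outside neurons and the small multidendritic neuron cluster. That small cluster held 2.78% of the fed *G6P* UMIs, the same share as flight muscle, so its colour rests on very few UMIs.

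Fat body and 4 other clusters of metabolic tissue were compared with limma on the mean deposited value per library, over all genes tested in a cluster, and in the same way on the log2 of summed UMIs. Values before a test are levels, and log2 fold changes and their standard errors (SE) come from summed UMIs. A gene called on 1 scale alone is named as such, since the mean value moves with the UMIs held by a nucleus. At least 10 nuclei with a nonzero value in at least 2 libraries were needed for a test.

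In fat body, 8 members could be tested, all but *G6P*. At day 2, 6 rose and 1 fell on mean values, where 20.5% of all 8065 genes tested passed (12.1% up and 8.33% down). At day 5, 5 rose and 1 fell, where 31.4% of all genes passed (15.5% up and 15.9% down). On summed UMIs 5 rose and 1 fell at day 2, where 20.8% of all genes passed (10.5% up and 10.2% down), and 4 rose and 1 fell at day 5, where 34.5% passed (14.8% up and 19.7% down). The genes called at day 2 split as 979 up and 672 down on mean values, 849 up and 826 down on summed UMIs and 684 up and 933 down with median-ratio scaling of summed UMIs. The summed level of the 6 fat body markers was lower in the starved nuclei, at 518 and 501 UMIs per 10000 in the fed libraries, 294 and 293 at day 2 and 247 and 255 at day 5, and its part in these results was not tested. Most of the sum was *apolpp*, at 400 and 387 in the fed libraries and 191 and 203 at day 5, while *FASN1* stood at 32.2 and 31.8 fed and 31.8 and 30.6 at day 5. Median UMIs per fat body nucleus lay between 3884 and 4750 in all 6 libraries.

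*Pepck2* moved first up and then down. Its level was 1.19 and 1.31 UMIs per 10000 in the fed libraries, 2.57 and 2.46 at day 2 and 0.0699 and 0.115 at day 5. The 3 conditions did not overlap, and the day 5 libraries held 10 and 16 UMIs of it against 393 and 374 in the fed libraries. The log2 fold change was 1.01 ± 0.188 (SE, limma adjusted p = 0.00202) at day 2 and -3.74 ± 0.188 (SE, limma adjusted p = 1.28e-08) at day 5. From day 2 to day 5 it was -4.75 (limma adjusted p = 3.95e-09), where 25% of all genes passed on mean values and 27.5% on summed UMIs. Fat body held 61.9% of the *Pepck2* UMIs of all nuclei at day 2 and 6.53% at day 5.

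The other gluconeogenic gene moved little. *fbp* stood at 2.87 and 3.04 in the fed libraries, 3.28 and 3.57 at day 2 and 3.22 and 3.29 at day 5, so the starved libraries lay just above the fed ones. Mean values passed the test at both times (limma adjusted p = 0.0022 and 0.0377), while summed UMIs did not, with log2 fold changes of 0.21 (limma adjusted p = 0.0588) and 0.14 (limma adjusted p = 0.16). The day 5 call was lost without any 1 of the fed or day 5 libraries.

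*Tps1*, the trehalose maker, rose in steps. Its level was 16.2 and 16.1 in the fed libraries, 18.4 and 19.2 at day 2 and 21 and 21.6 at day 5, with no overlap between conditions. The log2 fold changes were small, 0.22 ± 0.0424 (SE, limma adjusted p = 0.00248) at day 2 and 0.40 ± 0.0424 (SE, limma adjusted p = 1.16e-05) at day 5. *Treh*, which splits trehalose, fell at day 2 and came back. It stood at 2.59 and 2.54 in the fed libraries, 1.62 and 1.76 at day 2 and 2.51 and 2.65 at day 5. The day 2 fold change was -0.60 ± 0.0794 (SE, log2, limma adjusted p = 0.000146), and at day 5 the libraries overlapped the fed ones (limma adjusted p = 0.0755 on mean values and 0.939 on summed UMIs). *Tret1-1* stood at 6.64 and 7.08 in the fed libraries, 7.20 and 6.80 at day 2 and 9.26 and 8.54 at day 5. It rose at day 5 only among the comparisons with the fed condition, with a log2 fold change of 0.38 ± 0.061 (SE, limma adjusted p = 0.000428).

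*GlyS* and *AGBE*, which build glycogen, rose at both times. *GlyS* stood at 0.652 and 0.740 in the fed libraries, 0.896 and 1.07 at day 2 and 1.62 and 1.60 at day 5. The 3 conditions were in that order without overlap, and the log2 fold change was 0.50 ± 0.118 (SE, limma adjusted p = 0.00959) at day 2 and 1.21 ± 0.118 (SE, limma adjusted p = 6.13e-06) at day 5. *AGBE* stood at 0.770 and 0.797 in the fed libraries, 2.08 and 1.66 at day 2 and 1.37 and 1.43 at day 5. All starved libraries lay above the fed ones, with log2 fold changes of 1.24 ± 0.113 (SE, limma adjusted p = 6.73e-06) and 0.84 ± 0.113 (SE, limma adjusted p = 0.000101). *GlyP*, which breaks glycogen down, stood at 1.38 and 1.28 in the fed libraries, 1.88 and 1.82 at day 2 and 1.45 and 1.23 at day 5. It rose at day 2 (log2 fold change 0.47 ± 0.102, SE, limma adjusted p = 0.00524) and at day 5 its libraries overlapped the fed ones.

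Some of these calls rested on single libraries. Without fed replicate 1, the day 2 calls of *Tps1*, *Treh* and *GlyS* in fat body were lost on mean values, with limma adjusted p up to 0.066, 0.055 and 0.0856, and 4 of the 8 members were called in place of 7. Without day 2 replicate 2, those of *GlyS* and *GlyP* were lost. *Pepck2* and *AGBE* at both times, *fbp* at day 2 and *Tps1*, *Tret1-1* and *GlyS* at day 5 passed with each of the 6 libraries left out in turn.

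**Figure D2:**
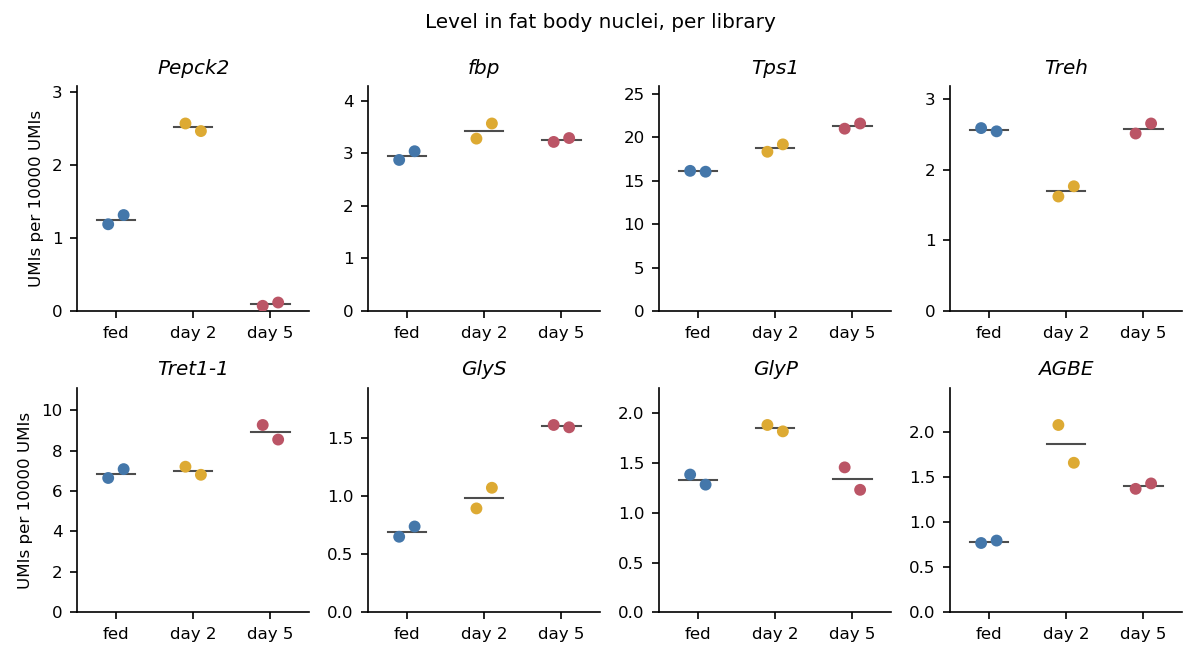
Each point is the level of a gene in the fat body nuclei of 1 library, in UMIs per 10000 UMIs, with 2 libraries per condition (fed in blue, day 2 in yellow, day 5 in red) and a bar at their mean. *Pepck2* rises and then falls to near 0, *Tps1* and *GlyS* climb in order, and *Treh* dips at day 2 only.

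In indirect flight muscle, which burns sugar in flight, *Tret1-1* rose, *Treh* fell and *GlyS* rose and then fell. Its nuclei hold few UMIs, with medians between 1019 and 1094 in the fed and day 2 libraries and of 884 and 874.5 at day 5, and 52.8% of the genes tested passed on mean values at day 5 (8.68% up and 44.1% down) against 13.7% at day 2 (4.74% up and 8.93% down). On summed UMIs 40.3% passed at day 5 (11.1% up and 29.3% down) and 8.79% at day 2 (4.14% up and 4.65% down). At day 2, 375 rose and 707 fell on mean values, 328 and 368 on summed UMIs and 411 and 248 with median-ratio scaling. Of those called at day 5, 687 rose and 3493 fell on mean values, 876 rose and 2317 fell on summed UMIs, and 1420 rose and 1293 fell with median-ratio scaling. The median log2 fold change of all genes was -0.41 by total UMIs and -0.11 with that scaling, so a day 5 change is larger or smaller by that shift depending on the reference. Of the 8 members tested, 2 rose and 1 fell at day 2 and 1 rose and 4 fell at day 5 on mean values, or 1 and 3 on summed UMIs. With median-ratio scaling the day 5 balance turned, as 4 rose and 2 fell.

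*Tret1-1* stood at 8.61 and 8.49 UMIs per 10000 in the fed libraries, 18.2 and 15.7 at day 2 and 13.5 and 13.7 at day 5, with no overlap between conditions. The log2 fold changes were 0.98 ± 0.0591 (SE, limma adjusted p = 1.32e-06) and 0.67 ± 0.0591 (SE, limma adjusted p = 4.17e-06), and 1.01 at day 5 with median-ratio scaling. *Treh* fell, from 5.51 and 5.69 to 3.19 and 3.0 at day 2 and 3.08 and 2.44 at day 5. All starved libraries lay below the fed ones, with log2 fold changes of -0.86 ± 0.0977 (SE, limma adjusted p = 0.00016) and -1.03 ± 0.0977 (SE, limma adjusted p = 7.72e-06). The transporter and the enzyme that splits its cargo moved in opposite directions in these nuclei, also with median-ratio scaling.

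*GlyS* changed direction within the 5 days. It stood at 2.34 and 2.70 in the fed libraries, 3.58 and 3.88 at day 2 and 1.61 and 1.52 at day 5. The conditions did not overlap, and the log2 fold change was 0.57 ± 0.0905 (SE, limma adjusted p = 0.00179) at day 2, -0.68 ± 0.0905 (SE, limma adjusted p = 0.000125) at day 5 and -1.25 (limma adjusted p = 1.19e-06) from day 2 to day 5, where 39.1% of all genes passed on mean values and 31.4% on summed UMIs. The day 5 fall was -0.35 (limma adjusted p = 0.0185) with median-ratio scaling. *GlyP* stood at 1.22 and 1.15, then 1.27 and 1.27, and at day 5 at 0.829 and 0.504. It fell at day 5 by 0.87 on the log2 scale (SE 0.189, limma adjusted p = 0.00389), a call lost with median-ratio scaling (-0.54, limma adjusted p = 0.0598). *AGBE* passed at day 5 on mean values alone (limma adjusted p = 0.0156), with levels of 0.703 and 0.613 fed and 0.567 and 0.524 at day 5, and not without fed replicate 1 or day 5 replicate 1. With median-ratio scaling its log2 fold change was 0.07 (limma adjusted p = 0.736).

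*Pepck2* held its level in flight muscle. It stood at 0.973 and 1.18 in the fed libraries, 1.12 and 1.04 at day 2 and 1.05 and 1.3 at day 5, with log2 fold changes of 0.01 ± 0.138 (SE) and 0.13 ± 0.138 (SE), neither past the threshold (limma adjusted p = 0.987 and 0.472). With median-ratio scaling the day 5 value was 0.46 and passed (limma adjusted p = 0.0335), as did *Tps1* (0.47, limma adjusted p = 0.0293) and *fbp* (0.67, limma adjusted p = 0.04). The lipoprotein gene *apolpp*, a fat body marker, stood at between 1.79% and 3.37% of its fat body level in flight muscle. *Pepck2* stood at 82% and 89.6% of its fat body level in the fed libraries and at over 10 times that level at day 5, as 1502% and 1130%. *Tps1* in flight muscle stood at between 4.61% and 6.17% and *fbp* at between 7.99% and 10.7% of the fat body level. The part of RNA from fat body in any of these genes was not tested.

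In the muscle nuclei of cluster 1, *Tret1-1* was the member that passed on both scales. It stood at 8.85 and 8.60 in the fed libraries, 12.9 and 13.5 at day 2 and 11.4 and 13.6 at day 5, all starved libraries above the fed ones. The log2 fold changes were 0.60 ± 0.0835 (SE, limma adjusted p = 0.00116) and 0.51 ± 0.0835 (SE, limma adjusted p = 0.000741), where 5.5% and 35.1% of all genes passed on mean values and 3.05% and 25.6% on summed UMIs. On mean values the day 5 rise was lost without fed replicate 2 or day 5 replicate 2. *Treh* fell at day 5 on mean values alone (limma adjusted p = 0.000643, and 0.053 on summed UMIs). *Pepck2* was sparse there, with 12 and 12 UMIs in the fed libraries, 27 and 15 at day 2 and 1 and 2 at day 5. The fall from day 2 to day 5 passed on both scales (limma adjusted p = 0.00117 and 0.00471), while neither comparison with the fed condition did, and 27.9% and 19.4% of all genes passed there. The genes called at day 5 split as 415 up and 1944 down on mean values, 604 and 1118 on summed UMIs and 886 and 820 with median-ratio scaling, which moved the median log2 fold change of all genes from -0.23 to -0.08. The 5 markers of other muscle summed to 101 and 101 in cluster 1 in the fed libraries, 106 and 115 at day 2 and 55.5 and 55.9 at day 5, and their part in these values was not tested. The median UMIs per nucleus were 909.5 and 874 in the fed libraries and 752.5 and 723 at day 5.

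Oenocytes, lipid-making cells of the body wall in which the driver of this genotype is active, changed in 1 member of the 6 tested. *Tret1-1* stood at 10.3 and 8.14 UMIs per 10000 in the fed libraries, 10.2 and 8.13 at day 2 and 1.26 and 2.00 at day 5. The fed and day 2 libraries overlapped and both day 5 libraries lay far below them, with 45 and 73 UMIs against 650 and 289 fed. The log2 fold change was -2.52 ± 0.225 (SE, limma adjusted p = 3.28e-05) at day 5 and -0.01 (limma adjusted p = 0.994) at day 2. The share of all genes called was 6.92% at day 2 and 11.6% at day 5 on mean values, and 6.27% and 14% on summed UMIs. The genes called at day 5 split as 123 up and 285 down on mean values, 174 and 316 on summed UMIs and 227 and 227 with median-ratio scaling. The call held with each library left out in turn, and median UMIs per oenocyte nucleus were 5125 and 5001 at day 5 against 5571 and 4062 fed. The 6 oenocyte markers summed to between 270 and 313 in all 6 libraries. The other 5 tested, *Tps1*, *Treh*, *GlyS*, *GlyP* and *AGBE*, passed at neither time, and *Pepck2* and *fbp* had no more than 8 UMIs in any library. With 63 to 111 oenocyte nuclei per library, the SE of the log2 fold change was 0.252 for *Treh*, 0.315 for *AGBE*, 0.373 for *GlyS*, 0.461 for *Tps1* and 0.647 for *GlyP*.

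In cluster 12, the cluster with enterocyte markers, 5 members rose at day 5 on both scales, where 18.8% of all genes passed on mean values and 19.7% on summed UMIs. *fbp* stood at 0.249 and 0.244 UMIs per 10000 in the fed libraries, 0.442 and 0.558 at day 2 and 0.740 and 0.702 at day 5. The order fed, day 2, day 5 held without overlap, and the day 5 log2 fold change was 1.54 ± 0.184 (SE, limma adjusted p = 0.00136). *Treh* went from 4.11 and 4.69 to 6.93 and 7.85 at day 5 (log2 fold change 0.75 ± 0.109, SE, limma adjusted p = 0.00323). *GlyS* (1.00), *AGBE* (0.93) and *Pepck2* (0.82) also rose at day 5, with limma adjusted p of 0.0225, 0.0201 and 0.0205. *Pepck2* in cluster 12 stood at 0.267 and 0.273 fed, 0.648 and 0.524 at day 2 and 0.502 and 0.452 at day 5, so that it stayed above the fed level at the time when it was nearly gone from fat body.

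At day 2, *Pepck2*, *fbp*, *GlyS* and *AGBE* passed in cluster 12 on summed UMIs alone, with log2 fold changes between 0.89 and 1.11, and none of the 8 tested passed on mean values, where 10.4% of all genes did, against 11.3% on summed UMIs. With median-ratio scaling, which moved the median log2 fold change of all genes from 0.13 to -0.01, *Pepck2* and *fbp* passed. Of all genes called at day 2, 197 rose and 601 fell on mean values, 481 and 381 on summed UMIs and 305 and 538 with that scaling. The day 2 nuclei held fewer UMIs there, with medians of 7460.5 and 8512.5 against 9854 and 9278 fed and 10737 and 9693 at day 5. *Tret1-1* fell at day 5 on mean values alone (limma adjusted p = 0.0182, and 0.155 on summed UMIs). The calls on mean values in cluster 12 rested on both fed libraries: 1 member passed without fed replicate 1 and 0 passed without fed replicate 2, in place of 6. The *Pepck2* call was the least stable of these, lost without each library but day 5 replicate 2 and also with a replicate block, and those of *GlyS* and *AGBE* were lost without day 5 replicate 2 as well. The enterocyte markers summed to 53.3 and 51.3 in the fed libraries and 37.9 and 32.7 at day 5, and their part in this was not tested.

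**Figure D3:**
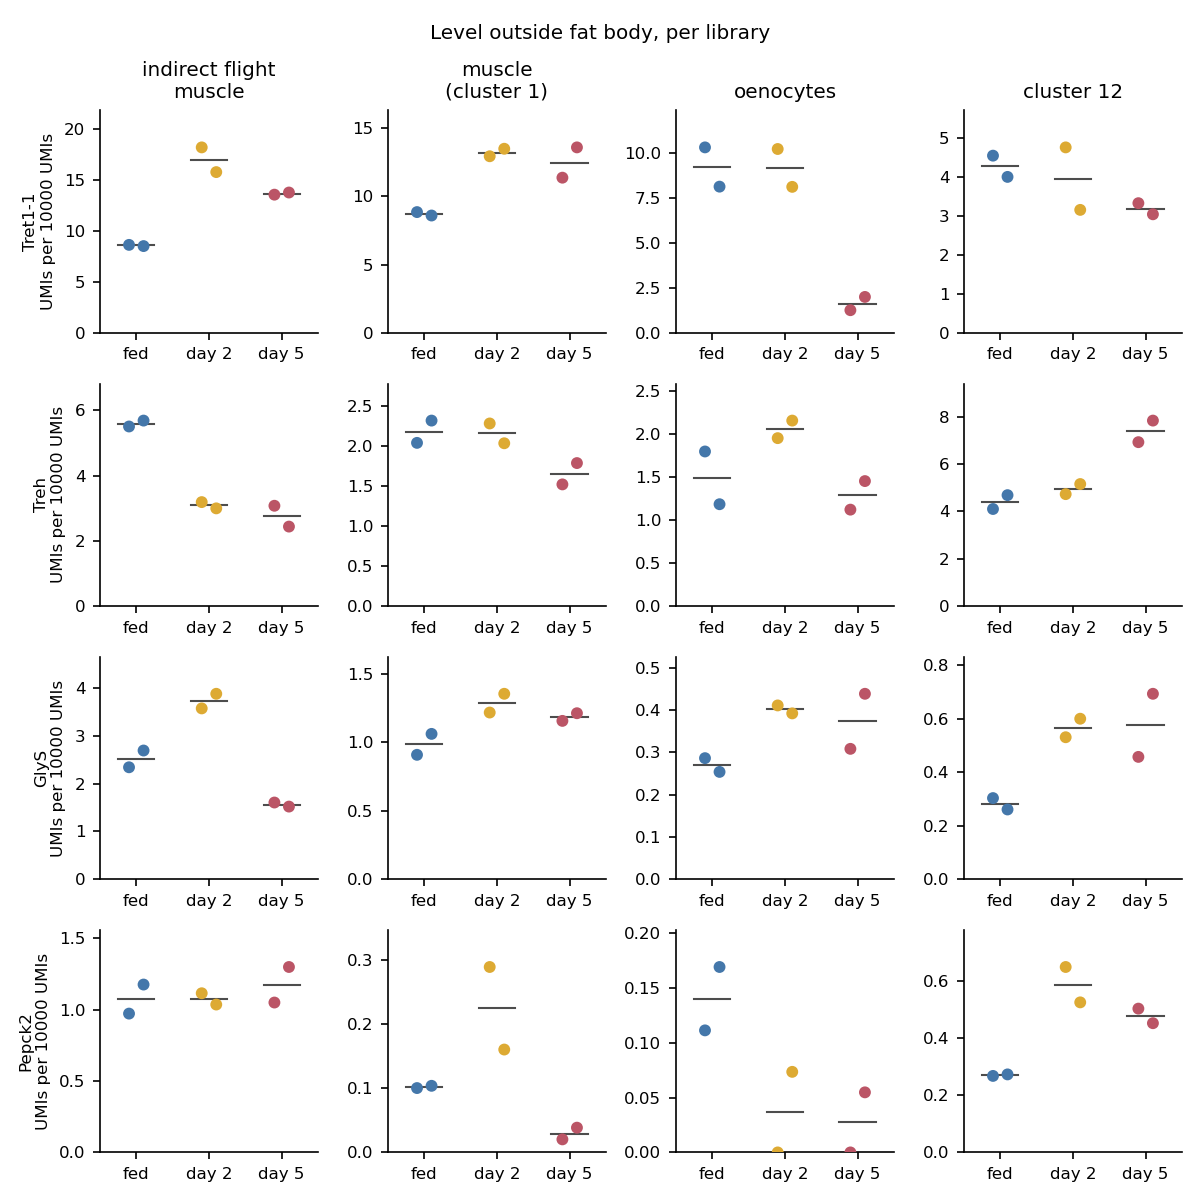
Points are levels in single libraries, in UMIs per 10000 UMIs, for *Tret1-1*, *Treh*, *GlyS* and *Pepck2* (rows) in flight muscle, the muscle of cluster 1, oenocytes and cluster 12 (columns), with a bar at the mean of the 2 libraries. *Tret1-1* is up in both muscles and down at day 5 in oenocytes, and *Treh* is down in flight muscle and up at day 5 in cluster 12.

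**Figure D4:**
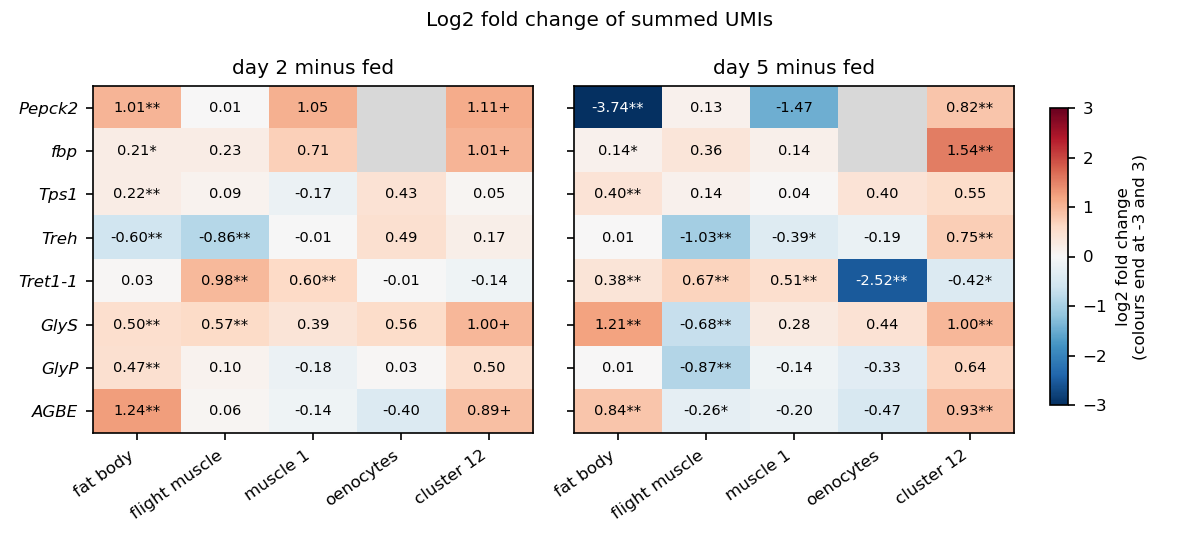
The number in each square is the log2 fold change of summed UMIs against fed flies, with columns for day 2 and day 5, for 8 genes in 5 clusters, and blue is lower and red higher. Marks show limma calls: both scales (2 stars), mean values alone (1 star) or summed UMIs alone (plus), and grey squares were not tested. The lowest value is -3.74, for *Pepck2* in fat body at day 5, and the next is -2.52, for *Tret1-1* in oenocytes.

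Whether fat body answered differently from another tissue was tested on the difference between 2 clusters of the same library. On summed UMIs, 0 of the 8 members tested passed against flight muscle, against cluster 1 muscle or against cluster 12 at day 2, and 0 of the 6 tested against oenocytes. Among all genes on that scale, limma called 0 against either muscle at day 2, with 1298 and 846 genes at an unadjusted p under 0.05. Against cluster 12 and oenocytes it called 0.0428% and 0.613%, with 1059 and 569 at that p. On mean values 7, 7, 3 and 2 members passed, where 23.6%, 19.8%, 11.4% and 11.2% of all genes did. The mean value responds less in a cluster where a gene is rarely captured, so only differences past the threshold on both scales are described further.

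At day 5 several responses differed. The *Pepck2* response in fat body was lower than in flight muscle by 3.87 on the log2 scale (limma adjusted p = 0.01), with values of -3.74 and 0.13 in the 2 tissues. It was lower than in cluster 12 by 4.57 (limma adjusted p = 0.0133) and than in cluster 1 muscle by 2.27 (limma adjusted p = 0.0292), where the day 5 libraries held 1 and 2 UMIs. The *GlyS* response was higher in fat body than in flight muscle by 1.89 ± 0.172 (SE, limma adjusted p = 0.0131), the *AGBE* response by 1.10 ± 0.203 (SE, limma adjusted p = 0.0327) and the *Treh* response by 1.04 ± 0.222 (SE, limma adjusted p = 0.0426). The *Tret1-1* response was higher in fat body than in oenocytes by 2.90 ± 0.335 (SE, limma adjusted p = 0.0126), and the *fbp* response was lower in fat body than in cluster 12 by 1.41 ± 0.219 (SE, limma adjusted p = 0.0381). On summed UMIs, 15.6% of all genes passed against flight muscle, 6.24% against cluster 1, 4.75% against cluster 12 and 6.48% against oenocytes. On mean values these shares were 34.2%, 30.7%, 17.5% and 17.4%.

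Levels in fed flies were compared in the same way, as differences of log2 levels on summed UMIs. *Tps1* was higher in fat body than in flight muscle by 4.05 ± 0.143 (SE, limma adjusted p = 8.72e-05) and than in oenocytes by 5.04 ± 0.519 (SE, limma adjusted p = 0.000765). *fbp* was higher in fat body than in flight muscle by 3.46 ± 0.152 (SE, limma adjusted p = 0.000109). *GlyS* was lower in fat body than in flight muscle by 1.85 ± 0.122 (SE, limma adjusted p = 0.000316). At day 5 the *GlyS* level in flight muscle was 99.5% and 95.4% of that in fat body, against 360% and 364% fed. *Treh* was lower in fat body than in cluster 12, with a log2 difference of -0.78 (limma adjusted p = 0.00794). These passed on mean values too. On mean values 76% of all genes passed against flight muscle and against cluster 1, 46.6% against oenocytes and 61.9% against cluster 12. On summed UMIs the shares were 51.8%, 51.3%, 42.3% and 35.9%. Against cluster 1 muscle *GlyS* turned direction with the scale, and so did *Tret1-1* against both muscles.

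Elsewhere in the body few members moved. In the epithelial cluster *Tret1-1* fell, from 4.45 and 4.68 in the fed libraries to 2.05 and 2.84 at day 5 (log2 fold change -0.91 ± 0.157, SE, limma adjusted p = 0.00588), where 19.6% of all genes passed on mean values and 11.7% on summed UMIs. The day 5 call on mean values was lost without fed replicate 2. At day 2 *Tret1-1* fell there on mean values alone (limma adjusted p = 0.0309), where 4.2% of all genes passed. That call was lost without any 1 of the fed or day 2 libraries. In germline cluster 6, *Tps1* stood at 0.728 and 1.01 fed and 2.77 and 1.49 at day 5 (log2 fold change 1.26, limma adjusted p = 0.048, with 7.8% of all genes called on mean values and 16% on summed UMIs), and the call on mean values was lost without either fed or either day 2 library. With median-ratio scaling it missed the threshold (limma adjusted p = 0.0552). In these nuclei the 5 enterocyte markers summed to 62.4 and 26.7 at day 5 against 12.8 and 12.6 fed. Their part in the *Tps1* value was not tested. In neurons of day 5 replicate 1 both *Tps1* (2.88) and *apolpp* (16.9) were high, against 0.412 and 1.39 in day 5 replicate 2. *Treh* rose at day 5 on summed UMIs alone in glia (log2 fold change 1.10, limma adjusted p = 0.00938) and hemocytes (1.54, limma adjusted p = 0.0256), where 6.73% and 9.01% of all genes passed. On mean values alone *Treh* and *GlyS* fell in cluster 10 and in follicle cluster 4 and *AGBE* fell in cluster 10, where 27.1% and 46.1% of all genes passed, and *Tps1* rose in muscle cluster 13, where 8.44% did. Each of these calls was lost without at least 1 library, fed replicate 1 in all 6. In the clusters named ovary cell, glia, neuron, female germline cell, pylorus, hemocyte and epidermal cell, and in follicle clusters 5 and 14, no member passed on mean values in either comparison with the fed condition, where between 0.571% and 29.7% of all genes did.

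Over all nuclei of a library, levels move with the mix of cell types as well as with levels within them. *Pepck2* stood at 0.365 and 0.431 UMIs per 10000 in the fed libraries, 0.651 and 0.603 at day 2 and 0.238 and 0.282 at day 5, and passed in both directions on both scales (log2 fold change 0.66 and -0.61, limma adjusted p = 0.00688 and 0.00432). *Tps1* stood at 2.93 and 2.77 fed and 4.84 and 4.54 at day 5 (log2 fold change 0.72 ± 0.049, SE, limma adjusted p = 5.89e-05), while fat body took 13.9% of all UMIs in the fed libraries and 18.5% at day 5. Of the 9 members, 5 rose and 1 fell at day 2 on mean values, where 37.1% of all genes passed (33.1% on summed UMIs), and 3 rose and 4 fell at day 5, where 60.5% passed (51.2% on summed UMIs). On summed UMIs 5 rose and 1 fell at day 2 and 4 rose and 1 fell at day 5. All genes called at day 5 split as 1526 up and 5554 down on mean values, 2074 and 3911 on summed UMIs and 2632 and 3035 with median-ratio scaling, and at day 2 as 3086 and 1256, 2705 and 1170, and 1230 and 1757. On mean values the day 2 call of *Pepck2* was lost without fed replicate 1 or day 2 replicate 1, and the day 5 call of *Tps1* without fed replicate 2 or day 5 replicate 1. The body-wide falls of *Treh* and *GlyS* at day 5 on mean values were absent from summed UMIs (log2 fold change 0.00 and 0.06, limma adjusted p = 0.997 and 0.569).

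A list of 49 other carbohydrate genes, of which 45 had a row, places these values in their pathways. The list was chosen with earlier results of these data known, so its counts are a description and no independent test. In fat body, 20 of 44 tested rose and 8 fell at day 2 on both scales, and 21 rose and 8 fell at day 5, with a median log2 fold change of 0.26 and 0.34 against 0.06 and -0.08 for all genes tested. Among all genes in fat body, 12.1% rose and 8.33% fell at day 2 and 15.5% rose and 15.9% fell at day 5 on mean values, with 10.5% and 10.2%, and 14.8% and 19.7%, on summed UMIs. Each of these shares is for 1 scale alone. The counts of each group below are of genes called on both scales, for which no share of all genes is given here. Among the enzymes that feed gluconeogenesis and the shuttles, *Got2*, the mitochondrial aspartate aminotransferase, stood at 0.546 and 0.495 UMIs per 10000 in the fed libraries, 4.17 and 4.85 at day 2 and 7.11 and 6.91 at day 5. Its log2 fold change at day 5 was 3.75 ± 0.0885 (SE, limma adjusted p = 2.13e-11), and the cytosolic form *Got1* rose by 2.45 (limma adjusted p = 3.98e-09). *PCB*, the pyruvate carboxylase that supplies oxaloacetate to Pepck, rose by 0.75 (limma adjusted p = 4.11e-06) at day 2 and 0.33 (limma adjusted p = 0.0017) at day 5. The glycerol-3-phosphate dehydrogenases *Gpdh1* and *Gpo1* fell at day 5, with log2 fold changes of -1.75 and -2.99 (limma adjusted p = 1.35e-09 and 1.29e-09). In this group, 5 of 7 rose and 2 fell at day 2 and 3 rose and 2 fell at day 5 on both scales.

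Of 12 genes of glycolysis, from hexokinases to pyruvate kinase, 7 rose and 0 fell in fat body at each time on both scales. Gluconeogenesis shares only some of their steps. *Hex-C*, a hexokinase, went from 0.930 and 1.07 to 3.21 and 3.35 at day 2 and 2.99 and 3.19 at day 5, and *Pgi*, which interconverts glucose and fructose phosphates, from 0.960 and 1.18 to 3.84 and 3.43 at day 5. Of the 11 other glycogen genes, 5 rose and 4 fell at day 2 and 7 rose and 3 fell at day 5. *Gyg*, the glycogenin that primes new chains, stood at 0.263 and 0.354 fed, 1.00 and 1.06 at day 2 and 1.56 and 1.83 at day 5 (log2 fold change 2.47 ± 0.149, SE, limma adjusted p = 7.1e-08). *UGP*, which makes the glucose donor of *GlyS*, went from 12.3 and 12.2 to 25.8 and 25.3 at day 2 and 20.1 and 20.1 at day 5. The genes *Gbs-70E* and *Gbs-76A*, which encode glycogen-binding subunits of protein phosphatase 1, fell at both times, *Gbs-70E* from 74.3 and 82.4 fed to 34.5 and 36.4 at day 5. In the hormone signal group 3 of 8 rose and 2 fell at day 2 and 4 rose and 3 fell at day 5. *AkhR*, the receptor of the hormone that mobilises stores, went from 15.9 and 15.3 to 3.78 and 3.55 at day 5, and *sug*, a zinc finger factor of sugar responses, from 23.2 and 23.2 to 1.99 and 2.16. None of the 3 other trehalose genes and none of the 3 sugar transporters tested passed on both scales.

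In flight muscle, 7 of the 43 tested from the list rose and 2 fell at day 2 on both scales, with a median log2 fold change of 0.11 against -0.09 for all genes. At day 5, 7 rose and 19 fell, with a median of -0.20 against -0.41 for all genes, of which 44.1% fell on mean values and 29.3% on summed UMIs. Of the 12 genes of glycolysis, 9 fell there and 1 rose at day 5, with a median of -0.43, close to that of all genes, and 5 of the 7 entry and shuttle genes fell. *Gyg* rose in flight muscle too, from 4.03 and 3.92 to 7.91 and 8.79 at day 5 (log2 fold change 1.07, limma adjusted p = 3.62e-07), at the time when *GlyS* fell. *foxo*, the transcription factor held back by insulin signalling, stood at 5.77 and 5.71 fed, 9.0 and 8.93 at day 2 and 15.4 and 15 at day 5. In cluster 1 muscle 3 of 43 rose and 8 fell at day 5 on both scales, where 35.1% of all genes passed on mean values and 25.6% on summed UMIs. In cluster 12, 16 of 44 rose and 3 fell at day 5, with a median of 0.60 against 0.01 for all genes, of which 18.8% and 19.7% passed. In oenocytes at day 5, 0 of 33 rose and 1 fell on both scales, where 11.6% and 14% of all genes passed. That oenocyte gene was *PCB*, at 1.32 and 1.21 fed, 2.57 and 2.45 at day 2 and 0.364 and 0.383 at day 5.

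Likeness of pattern was described as Pearson's r of log2 levels over the 26 clusters of the pooled fed libraries, among 7379 genes with at least 1000 UMIs. The points share libraries and may share RNA from other cells, so no test is given. *Tps1* was most like *CG6503* (r = 0.932), *CG14823* (r = 0.925) and *apolpp* (r = 0.917), all highest in fat body. *AGBE* was most like *aay* (r = 0.920) and *Pgm1* (r = 0.919), followed by *Pex19* (r = 0.889). *Pepck2* was most like the trehalose phosphatase gene *CG5171* (r = 0.824), then *galla-1* (r = 0.795) and *cu* (r = 0.758). *fbp* was most like *Gbs-70E* (r = 0.756), *Pp1alpha-96A* (r = 0.754) and *Rab39* (r = 0.734). *GlyS* was most like *CG3857* (r = 0.837), *Pfk* (r = 0.829) and *lncRNA:CR44754* (r = 0.828), all highest in flight muscle, and *GlyP* like *COX7C* (r = 0.802), *ND-SGDH* (r = 0.793) and *Gapdh2* (r = 0.792). *Treh* was most like *Nak*, *Alp4* and *Drip* (r from 0.748 to 0.765) and *Tret1-1* was most like *CG13506*, *Xrp1* and *Mef2* (r from 0.747 to 0.768). For *G6P* the nearest genes were *stj*, *Rim* and *Rab26* (r from 0.863 to 0.885). Its 88 UMIs are those of all 6 libraries, and the fed libraries used here held only part of them. Neurons held 33.3% of the fed *G6P* UMIs.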

How the data were processed

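Nuclei of bodies without heads were profiled with 10x Genomics 3′ chemistry. Per the submitters' processing notes and the paper's methods, the authors counted UMIs with Cell Ranger 6.1.1 and joined libraries at equal read depth. The notes also name Seurat and BDGP6. The annotation and use of strand are not given in the sources used here. The authors deposited natural log values. From the values, each is the ln of 1 plus a gene's share of a nucleus's UMIs scaled to 10000 and multiplied by the number of nuclei per UMI of that gene. Of the nonzero values, 99.97% gave UMIs no further than 0.05 from an integer, and the formula returned 98.95% to 0.001. A nucleus held 499 to 24995 UMIs, median 1231. As the values are logs, no count model was used.

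Nuclei were assigned to libraries by barcode number, and to conditions by the sample titles, although library names carry 5 and 7 for day 2 and day 5. Mean values per library and cluster, over all 6 libraries, were compared with limma 3.58.1 (R 4.3.3, lmFit, eBayes with trend), with Benjamini-Hochberg adjustment over the genes tested in a cluster and a threshold of 0.05. It was run in all nuclei and in 19 clusters whose every library had 20 nuclei or more. Genes needed a nonzero value in 10 nuclei in at least 2 libraries. Log2 fold changes are from summed UMIs (0.5 added to each sum, 1 to the total), also tested with limma. Clusters were compared by within-library differences. The fits were also run on simulated fat body and oenocyte data with 200 genes changed, and the outcome is not given here. With 2 libraries per condition the spread is pooled over genes and conditions.

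The members, lists and tests were chosen with earlier results of these data known. All 10 members were to be described, with counts for each list of other carbohydrate genes, list genes past the threshold in the main clusters by choice, and the 3 genes most alike in pattern. Alternatives were other filters, summed UMIs, median-ratio scaling, mean log-normalized UMIs, 4 libraries, a replicate block, each library left out and the tenth of nuclei with most UMIs left out. Promoter motifs were not analysed. Same-numbered libraries deviated together only in cluster 13, so numbers were not read as pairs elsewhere.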

Additional observations from a re-analysis of the deposited data

Results flagged for a closer look

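Several member genes answered differently in fat body and in another cluster of the same libraries at day 5, by limma on the within-library difference of mean values and of summed UMIs. The differences below are fat body minus the other cluster, on the log2 scale of summed UMIs, day 5 minus fed. *Pepck2* differed by -3.87 against indirect flight muscle, by -2.27 against the muscle of cluster 1 and by -4.57 against cluster 12. *fbp* differed by -1.41 against cluster 12. *Tret1-1* differed by 2.90 against oenocytes. Against indirect flight muscle, *GlyS* differed by 1.89, *AGBE* by 1.10 and *Treh* by 1.04. No cause was tested.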

How the results depend on the processing

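With summed UMIs in place of mean values, 105 of 167 values of single genes and comparisons kept their direction and side of the threshold, as did 166 of 167 with a replicate block. Same-numbered libraries deviated together (correlation above 0.1 in every pair of conditions) only in cluster 13, so the numbers were not read as pairs in the other clusters. In cluster 13 the *Tps1* call at day 5 on mean values passed with the replicate block too. With the replicate block 7 and 6 of the 8 members were called in fat body, among 1603 genes at day 2 and 2478 at day 5, and only the *Pepck2* call in cluster 12 (0.270 in mean value at day 5) was lost. The causes of the changes below were not tested.

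In flight muscle, the genes called at day 2 (1082) were 696 with no filter, 696 on summed UMIs and 659 with median-ratio scaling, and 2713 at day 5 with that scaling (4180). In cluster 1 muscle, members called at day 2 (1) were 0 with no filter, and genes called (370) were 192 with no filter, 205 on summed UMIs and 178 with median-ratio scaling. At day 5, 1 member (2 on mean values) was called with no filter, on summed UMIs and with median-ratio scaling, and 1529 genes (2359) with no filter. In oenocytes at day 2, 1 member (0) was called with mean log-normalized UMIs. Genes called there were 125 and 254 with no filter (243 at day 2 and 408 at day 5) and 365 and 672 with mean log-normalized UMIs. In cluster 12 at day 2 (0 members), 4 were called on summed UMIs, 2 with median-ratio scaling, 2 with mean log-normalized UMIs and 1 with only the 4 libraries compared, and 427 genes (798) with no filter.

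For fat body against another cluster, members called on summed UMIs fell against oenocytes from 2 to 0 at day 2 and 4 to 1 at day 5. Against flight muscle they fell from 7 to 4 for the fed level, 7 to 0 at day 2 and 7 to 4 at day 5. Against cluster 1 they fell from 8 to 5 for the fed level, 7 to 0 at day 2 (4 with no filter) and 5 to 1 at day 5. Against cluster 12 they fell from 3 to 0 and 6 to 2.

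These values changed direction. With median-ratio scaling, the day 5 log2 fold changes in flight muscle were 0.461 for *Pepck2*, 0.470 for *Tps1* and 0.067 for *AGBE*. In all nuclei *Tret1-1* at day 2 was -0.020 with that scaling, and at day 5 *Treh* was 0.000 on summed UMIs and 0.114 with median-ratio scaling and *GlyS* was 0.060 and 0.173. For fat body minus the other cluster on summed UMIs, the day 2 response of *Pepck2* was -0.046 against cluster 1 and -0.100 against cluster 12, that of *fbp* was -0.020 at day 2 and -0.218 at day 5 against flight muscle and -0.503 and -0.004 against cluster 1, that of *Tps1* was -0.000 at day 5 against oenocytes and that of *AGBE* was -0.096 at day 5 against cluster 12. The fed level difference of *Tret1-1* was -0.319 against flight muscle and -0.347 against cluster 1, and that of *GlyS* was -0.503 against cluster 1. As a mean over nuclei of UMIs per 10000, the fed levels were 15.78 for *Tps1* in fat body, 18.52 for *Tret1-1* in pylorus, 1.9 for *GlyP* in cluster 13 and 0.754 for *AGBE* in fat body.

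With 1 library left out in turn, members called in fat body at day 2 ranged from 4 to 7 and genes called from 845 to 1917, and from 1495 to 2442 at day 5. In flight muscle genes called ranged from 495 to 1034 at day 2 and 2493 to 4578 at day 5. In cluster 1 muscle members called ranged from 1 to 2 at day 2 and 1 to 3 at day 5, and genes from 147 to 390 and 1350 to 2491. In oenocytes genes called ranged from 81 to 250 at day 2 and 195 to 403 at day 5. In cluster 12 members called ranged from 0 to 1 and 0 to 5, and genes from 223 to 1106 and 536 to 1358. Members called for fat body against another cluster ranged from 2 to 5 for the fed level against oenocytes, 4 to 8 at day 2 against cluster 1, and 2 to 5 at day 2 and 3 to 5 at day 5 against cluster 12. Sparse genes set the limit: *G6P* had 88 UMIs in all nuclei.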
